A study of Mus musculus with 8 samples.

Results

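The genes described here are bone-forming cell genes of the otic capsule, the shell of bone that encloses the cochlea. They were chosen by name as 10 osteoblast and osteocyte genes, namely Ibsp, Sp7, Alpl, Dmp1, Mepe, Phex, Sost, Spp1, Omd and Runx2. The choice was made with earlier results of these data known. Of these 10 genes, 8 had a feature that the platform annotation linked to exactly 1 symbol, out of 22180 genes with such a feature, and Spp1 and Runx2 were not analysed here. Only Alpl had a second feature, and the brighter of both was used.

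RNA came from the whole encapsulated cochlea of mice at postnatal day 16, with both cochleae of 1 animal pooled, so each array represents 1 animal. The groups were 4 knockout mice, labelled miR-183/96 KO, and 4 mice labelled control, which the series design calls wild type. The labels do not name strain, sex, litter or the exact segment removed, nor any cell type in which the loss would be restricted. Expression was read on Affymetrix Mouse Gene 2.0 ST arrays as log2 values, in which a difference of 1 is a doubling. The microRNAs named in the genotype are shown to identify what the knockout is labelled as lacking. They are RefSeq sequences (GRCm38.p6, minus strand), with the seed, bases 2 to 8, in capitals, at chr6:30169711-30169732 for miR-183-5p and chr6:30169506-30169528 for miR-96-5p.
miR-183-5p: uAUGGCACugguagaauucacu
miR-96-5p: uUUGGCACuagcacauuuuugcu

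Osteoblasts lay down the collagen and glycoprotein matrix of bone and supply the enzymes that let it mineralise. Some of them become enclosed in that matrix as osteocytes, which sense load and signal to other bone cells and to the kidney. In the ear this bone forms a capsule that remodels little in adult life, and it is part of the tissue whenever a cochlea is taken with its shell. In RNA from such a mixed tissue, fewer bone cells and less RNA per bone cell cannot be told apart.

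Across the 3 roles of matrix, mineralisation and regulation, none of the 8 measured genes differed between knockout and control cochlea beyond the spread between animals. All 8 log2 differences, knockout minus control, were below 0, from -0.29 for Mepe to -0.05 for Omd, with a median of -0.23. In limma, 0 of the 8 genes passed an adjusted p of 0.05 (0.425 to 0.902), where 0.0128% of all 23521 tested features were called, and 0 of 8 had an unadjusted p under 0.05, against 14.3% of all tested features. That second count rested on 1 animal, knockout replicate 1, which was the highest knockout animal for 7 of the 8 genes. Leaving it out lowers the knockout mean of those 7 by construction. The genes share that animal, so they are not separate results. Once knockout replicate 1 was left out, 5 of 8 (Ibsp, Alpl, Dmp1, Mepe and Sost) had an unadjusted p under 0.05, all lower, against 6.01% of all tested features and 19.6% of those at least as bright as the dimmest bone gene feature. Sp7 alone was under 0.05 once control replicate 3 was left out, against 23.4% of all tested features, 12.6% in the lower direction. No bone gene passed the adjusted threshold in either case. The knockout and control values overlapped for every one of the 8 genes, as for most tested features, of which 5.96% did not overlap. A difference below 0 was shared by 47.6% of tested features, but by 85.5% of the 4373 features at least as bright as the dimmest bone gene feature, whose own median difference was -0.19.

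The genes for acidic glycoproteins of mineralised matrix stand next to each other in the genome. In the RefSeq gene table (GRCm38.p6), Dspp, Dmp1, Ibsp, Mepe and Spp1 follow one another in this order on chromosome 5, with only the long noncoding RNA gene Gm31048 between Dmp1 and Ibsp. Omd lies between Aspn and Ogn on chromosome 13. Promoter windows are shown as a description of the genes, and whether their letters bear on the values was not tested. RefSeq promoters of 250 bases before to 50 after the gene start were found for 7 of the 8 genes, with 9 windows in all. Capitals mark matches, on either strand, to the core motif of Runx factors (TGTGGT), the CCAAT box (CCAAT) and the TATA box (TATAAA), which do not overlap in these windows.

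The windows of Ibsp (chr5:104299037-104299336, plus strand), Dmp1 (chr5:104202367-104202666, plus strand), Mepe (chr5:104325079-104325378, plus strand) and Sost (chr11:101966966-101967265, minus strand) are printed as the strand of the gene reads.
Ibsp: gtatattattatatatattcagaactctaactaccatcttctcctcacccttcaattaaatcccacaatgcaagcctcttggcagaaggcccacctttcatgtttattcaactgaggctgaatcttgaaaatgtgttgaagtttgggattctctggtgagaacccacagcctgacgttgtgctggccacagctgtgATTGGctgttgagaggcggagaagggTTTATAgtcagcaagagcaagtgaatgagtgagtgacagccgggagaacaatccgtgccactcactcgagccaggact
Dmp1: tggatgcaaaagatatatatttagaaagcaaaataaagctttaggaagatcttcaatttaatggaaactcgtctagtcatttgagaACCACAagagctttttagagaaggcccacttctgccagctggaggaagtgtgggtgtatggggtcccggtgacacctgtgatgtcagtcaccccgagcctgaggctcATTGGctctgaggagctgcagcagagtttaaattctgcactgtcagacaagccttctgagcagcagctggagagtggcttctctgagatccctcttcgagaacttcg
Mepe: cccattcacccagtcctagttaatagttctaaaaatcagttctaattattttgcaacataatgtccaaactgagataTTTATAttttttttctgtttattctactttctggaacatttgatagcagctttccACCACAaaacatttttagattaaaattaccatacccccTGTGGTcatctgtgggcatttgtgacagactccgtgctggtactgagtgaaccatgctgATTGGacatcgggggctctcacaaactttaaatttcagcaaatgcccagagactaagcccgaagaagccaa
Sost: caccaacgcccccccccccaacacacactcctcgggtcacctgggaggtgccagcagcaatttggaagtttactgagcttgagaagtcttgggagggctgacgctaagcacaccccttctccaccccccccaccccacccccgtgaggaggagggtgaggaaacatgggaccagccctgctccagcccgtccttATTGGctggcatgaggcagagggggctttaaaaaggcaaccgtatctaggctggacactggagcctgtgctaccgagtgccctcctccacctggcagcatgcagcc

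All 4 printed windows hold the CCAAT box in the reversed form ATTGG. Its first base lies at position -54 in Ibsp, -57 in Dmp1 and -56 in Sost, counted from the gene start, and at -21 in Mepe. Ibsp also has a reversed TATA box, TTTATA, at -28. A CCAAT match was present in 5 of the 9 windows and in 37.4% of the 32851 promoters of the table. The TATA box matched in 3 of 9, with 13.6% of all promoters, and the Runx core in 2 of 9, with 16.8% of all promoters. The second Dmp1 window, farther upstream, held ATTGG at -101, and the windows of Omd and Phex and 1 of the Alpl windows held none of the 3 motifs. These are matches of letters only.

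Ibsp, Dmp1 and Mepe encode integrin-binding glycoproteins that carry acidic stretches and bind mineral. Ibsp (feature 17439815), bone sialoprotein, is an early marker of mineralising osteoblasts. Its log2 values were 11.04, 10.66, 10.33 and 10.52 in knockout replicates 1 to 4 and 10.86, 11.01, 10.79 and 10.87 in control replicates 1 to 4. Knockout replicate 1 was above every control animal, while the other knockout animals were below every one. The means were 10.64 ± 0.30 in knockout and 10.88 ± 0.09 in control cochlea (SD, n = 4), a difference of -0.24 (SE 0.14, 95% interval -0.55 to 0.06, limma adjusted p = 0.425).

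Dmp1 (feature 17439805), dentin matrix protein of osteocytes, acts in mineralisation and in the control of phosphate. It read 9.59, 9.12, 8.61 and 8.97 in the knockout animals and 9.35, 9.60, 9.10 and 9.14 in the control animals. Knockout replicate 1 lay level with the highest control animal, and knockout replicates 3 and 4 lay below all controls. The difference was -0.22 (SE 0.18, 95% interval -0.61 to 0.16, limma adjusted p = 0.546).

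Mepe (feature 17439825), a matrix phosphoglycoprotein of osteocytes whose acidic fragment restrains mineralisation, gave the difference farthest from 0. It read 8.25, 7.82, 7.45 and 7.65 in knockout and 7.85, 8.55, 7.79 and 8.15 in control animals. Here control replicate 2 stood above all other animals, and control replicates 1, 3 and 4 lay within the knockout range. The difference was -0.29 (SE 0.18, 95% interval -0.69 to 0.10, limma adjusted p = 0.453). The neighbouring gene Dspp, chiefly a tooth dentin gene, had values of 5.23 ± 0.32 in knockout and 5.25 ± 0.35 in control cochlea (SD, n = 4), a difference of -0.02 (limma adjusted p = 0.960).

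**Figure D1:**
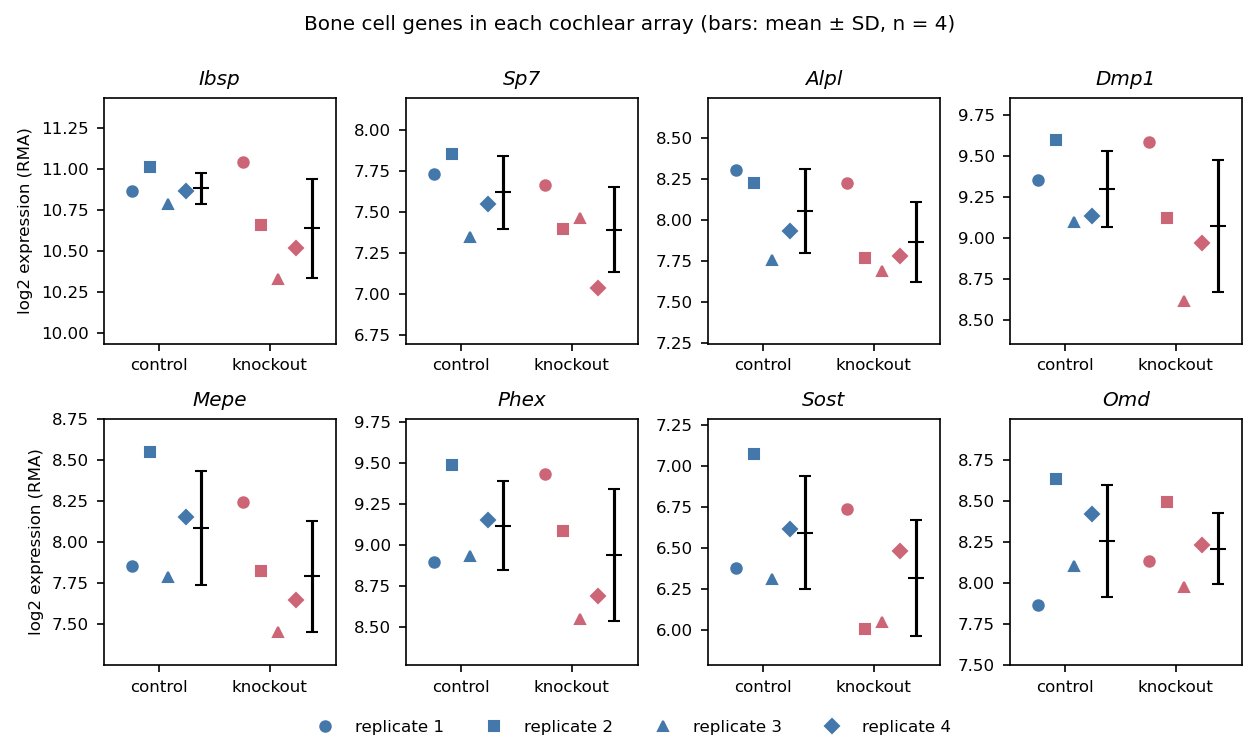
Log2 expression (RMA, vertical axis, the same span of 1.5 in each panel) of the 8 measured bone cell genes in 4 control and 4 knockout animals, with a marker shape for each replicate number and the mean ± SD beside each group. The groups overlap in every panel, and knockout replicate 1 (circle) is the highest knockout animal in 7 of 8 panels.

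Alpl and Phex encode enzymes needed for bone to mineralise normally. Alpl (feature 17431720), tissue-nonspecific alkaline phosphatase, breaks down pyrophosphate, an inhibitor of mineral growth. It read 8.23, 7.77, 7.69 and 7.78 in knockout and 8.31, 8.22, 7.76 and 7.94 in control animals. Knockout replicate 1 matched the upper control animals, and control replicate 3 matched the lower knockout animals. The difference was -0.19 (SE 0.15, 95% interval -0.51 to 0.13, limma adjusted p = 0.540), and the second Alpl feature gave -0.18 (limma adjusted p = 0.509).

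Phex (feature 17545629), a membrane endopeptidase of osteoblasts and osteocytes that limits the phosphate-wasting hormone Fgf23, read 9.43, 9.09, 8.55 and 8.69 in knockout and 8.90, 9.49, 8.94 and 9.15 in control animals. Knockout replicates 3 and 4 were the lowest of the 8 animals, whereas replicates 1 and 2 lay among the controls. The difference was -0.18 (SE 0.18, 95% interval -0.57 to 0.22, limma adjusted p = 0.644).

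Sp7, Sost and Omd cover regulation and the collagen-binding matrix. Sp7 (feature 17322219), or osterix, is a transcription factor required for osteoblast differentiation. It read 7.66, 7.40, 7.47 and 7.04 in knockout and 7.73, 7.86, 7.35 and 7.55 in control animals. Only knockout replicate 4 lay below all controls. The difference was -0.23 (SE 0.15, 95% interval -0.54 to 0.08, limma adjusted p = 0.457).

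Sost (feature 17269980) encodes sclerostin, a secreted Wnt antagonist of osteocytes that restrains bone formation. It read 6.74, 6.01, 6.05 and 6.48 in knockout and 6.38, 7.07, 6.31 and 6.62 in control animals. Knockout replicates 2 and 3 were lowest and control replicate 2 highest, and the remaining animals intermixed. The difference was -0.28 (SE 0.19, 95% interval -0.68 to 0.13, limma adjusted p = 0.488).

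Omd (feature 17287170), osteomodulin, is a small leucine-rich proteoglycan that binds collagen fibrils in bone. It read 8.13, 8.49, 7.97 and 8.23 in knockout and 7.87, 8.63, 8.10 and 8.42 in control animals. All 4 knockout values lay inside the control range. The difference was -0.05 (SE 0.16, 95% interval -0.39 to 0.30, limma adjusted p = 0.902), and it read 0.11 after cyclic loess normalization.

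**Figure D2:**
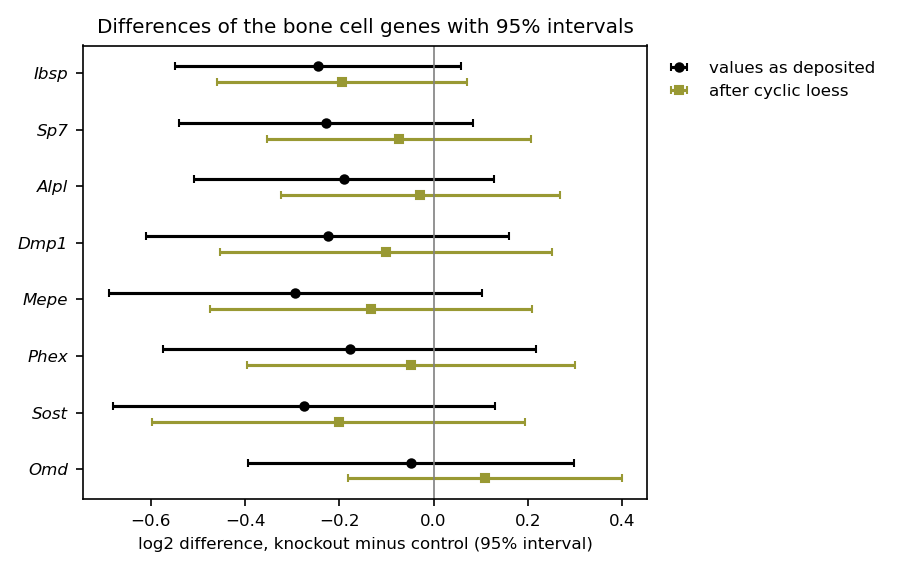
Log2 difference (knockout minus control, horizontal axis) of each measured bone cell gene with its 95% limma interval, from the values as deposited (circles) and after cyclic loess normalization (squares). Every interval includes 0, the deposited ones spanning -0.69 to 0.30, and after cyclic loess only Omd lies above 0.

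These intervals set what the 4 animals a group could resolve. Their lower ends correspond to knockout levels between 1.31-fold (Omd) and 1.61-fold (Mepe) below control, so a decrease of that size and no difference at all both lay within them. After cyclic loess, which evens out trends of difference with brightness, the median over the 8 genes was -0.09, and 7 of 8 stayed below 0. In the features at least as bright as the dimmest of them, the median was then -0.07. The SD of log2 values per array, a measure of its signal range, was 1.37 to 1.44 in knockout and 1.41 to 1.56 in control arrays. With it as a covariate the median of the 8 genes was -0.04, with Mepe, Phex and Omd above 0, and its part in the differences was not tested.

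Values also moved between animals of the same genotype. The knockout animals spanned 0.52 (Omd) to 0.97 (Dmp1) on the log2 scale, and the control animals spanned 0.22 (Ibsp) to 0.77 (Omd). These spans are ranges of single animals and cannot be weighed against a difference of group means. Knockout replicate 1 was the highest knockout animal for 7 genes, all but Omd, and in those 7 it exceeded the control mean. Control replicate 2 was the highest control for 7 genes, all but Alpl. At the other end, knockout replicate 3 was the lowest knockout animal for 6 genes and control replicate 3 the lowest control for 6. Averaged over the 8 genes, the deviation from each gene's mean was 0.42 in control replicate 2, 0.25 in knockout replicate 1 and -0.37 in knockout replicate 3. The median difference depended on these animals, being -0.36 once knockout replicate 1 was left out, -0.14 once knockout replicate 3 was, and -0.13 once control replicate 2 was.

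**Figure D3:**
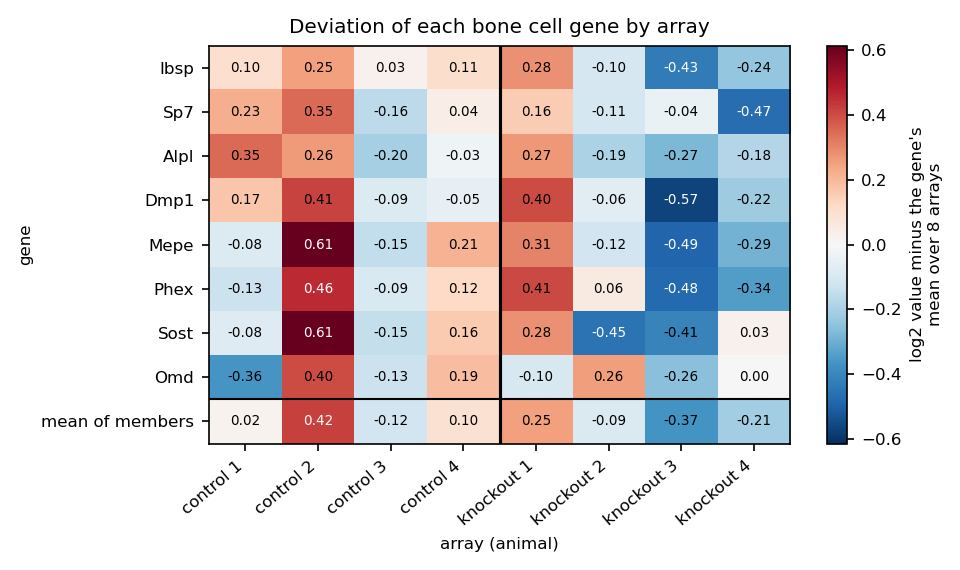
Deviation of each gene's log2 value from its mean over the 8 arrays (colour scale and printed values), with genes in rows, arrays in columns and the mean of the 8 genes in the last row. Control replicate 2 and knockout replicate 1 are mostly red (means 0.42 and 0.25) and knockout replicate 3 is below 0 in all rows (mean -0.37).

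Genes outside the set were ranked by how closely their profile over the 8 arrays followed the mean of these genes, as a description. Among 14517 genes with a mean of at least 5, the 8 closest had Pearson correlations of 0.963 to 0.981. They were Pde6d, Cpe, Dkk1, Rcn1, Ndufs7, Nfib, Neo1 and Gpalpp1. Dkk1, a secreted Wnt antagonist made by osteocytes among other cells, read 7.16, 6.91, 6.59 and 6.63 in knockout and 7.02, 7.52, 6.81 and 7.14 in control animals. It was the only one of the 8 that the bone lists below contain. Cpe encodes a carboxypeptidase that processes peptide hormones, Rcn1 a calcium-binding protein of the endoplasmic reticulum and Ndufs7 a subunit of respiratory complex I. Neo1 encodes a receptor of the neogenin family and Nfib a transcription factor.

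Other genes of bone formation were taken from lists by role, with the 10 named genes left out. Of 84 such genes, each counted once, 77 were measured, and limma called 0 of them. Of the 77, 18 had an unadjusted p under 0.05 in the lower and 1 in the higher direction. The lists overlap, with Mmp14 and Dkk1 each in more than 1 bone list. Ctsk is also in the osteoclast list below and Sox9 in the cartilage list, so these lists are not separate. The background was 7.25% lower and 7.04% higher over all tested features, and 23.2% lower among the features at least as bright as the dimmest bone gene feature. The median difference of the 77 was -0.19, beside -0.19 for the bright features and 0.014 for all tested features, and 69 were below 0. The 77 include dimmer genes than the bright set, 10 of them below the median brightness of tested features. In 7 of the 77, every knockout animal read lower than every control animal, against 2.65% of tested features and 6.31% of the bright ones.

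In the collagen matrix list, all 19 measured genes were below 0 with a median of -0.26, and 10 had an unadjusted p under 0.05, but 0 passed. Col1a1 and Col1a2 encode the chains of type I collagen, the main protein of bone. Col1a1 read 11.60, 11.37, 11.39 and 11.30 in knockout and 12.06, 11.93, 11.73 and 11.61 in control animals, so the groups did not overlap, and the difference was -0.42 (SE 0.13, limma adjusted p = 0.301). Col1a2 differed by -0.33 (limma adjusted p = 0.303), with no overlap either, but its second feature gave -0.05. Plod1, a lysyl hydroxylase that modifies collagen, was at -0.42 (limma adjusted p = 0.301). After cyclic loess 4 of the 19 had an unadjusted p under 0.05 in the lower direction, against 5.73% of all tested features, and Col1a1 was at -0.40. The share among bright features after cyclic loess is not given here.

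Among mineralisation enzymes and transporters, 8 of 8 measured genes were below 0 with a median of -0.25, and 3 had an unadjusted p under 0.05. They were the collagenase gene Mmp13 (-0.47, limma adjusted p = 0.324, but -0.26 once knockout replicate 4 was left out and -0.0096 with signal range as a covariate), the phosphate transporter gene Slc20a1 (-0.31, limma adjusted p = 0.330) and the pyrophosphate transport gene Ank (-0.27, limma adjusted p = 0.330). Among osteoblast transcription factors, 6 of 8 were below 0 with a median of -0.16. Atf4, which supports late osteoblast function, was at -0.36 with no overlap (limma adjusted p = 0.298), and Cbfb, the partner subunit of Runx factors, was at -0.38 (limma adjusted p = 0.305). Dlx3, a homeodomain factor, was at 0.24 (limma adjusted p = 0.384).

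Osteocyte genes other than the named ones had a median of -0.12 over 10 genes, 9 of them below 0, and 0 had an unadjusted p under 0.05. The smallest p-values belonged to Mmp14 (-0.25), a membrane protease, Dkk1 (-0.30) and the connexin gene Gja1 (-0.24), at limma adjusted p-values of 0.388 to 0.402. For Wnt and BMP signalling the median was -0.10 over 23 genes, 19 below 0. Bmpr2, a receptor for bone morphogenetic proteins, was at -0.46 with no overlap (limma adjusted p = 0.269). The Wnt co-receptor gene Lrp6 was at -0.31 (limma adjusted p = 0.301), but its second feature read 0.38. Axin2, a gene that Wnt signalling induces, was at 0.38 (limma adjusted p = 0.301), with 0.17 at its second feature.

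Small leucine-rich proteoglycans, the family of Omd, had a median of -0.23 over 10 genes, 9 of them below 0. Biglycan, Bgn, abundant in bone matrix, was at -0.38 (limma adjusted p = 0.305) and -0.18 at its second feature. Ogn, the neighbour of Omd, was at -0.31 (limma adjusted p = 0.383), and Fmod, fibromodulin, at -0.24 (limma adjusted p = 0.365) and -0.09 at its second feature. With 1 gene, Dspp, the remaining list of integrin-binding glycoproteins has no summary.

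Other tissues attached to or held in the capsule were read from marker lists as the mean log2 level per array. The osteoclast list, 14 of 14 measured, ranged from 7.07 to 7.30 in knockout and 7.19 to 7.46 in control arrays, with a median difference of -0.17 and Oscar (-0.34), Itgb3 (-0.28) and Nfatc1 (-0.26) at the smallest p-values. The cartilage list, 13 of 13 measured, ranged from 6.29 to 6.45 and from 6.33 to 6.53, with a median of -0.07 (Acan -0.33, Hapln1 -0.36, Matn1 0.33). Skeletal muscle genes, 15 of 15 measured, ranged from 5.67 to 6.87 and from 6.65 to 8.61, with a median of -0.72 (Myh4 -1.67, Pvalb -0.96, Actn3 -0.90). Once control replicate 2 was left out, the muscle median was -0.30, with Myh4 at -0.89, Pvalb at -0.57 and Actn3 at -0.55. Control replicate 2 was the highest animal for muscle and for the bone genes, but knockout replicate 1, the highest knockout animal for bone, was the lowest of all for muscle (5.67). Knockout replicate 1 was also the highest knockout animal for the osteoclast (7.30) and cartilage (6.45) lists. The part of muscle in the bone gene differences was not tested.

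Marrow lists differed in their order of animals from the bone genes. Erythroid genes, 6 of 10 measured, ranged from 7.38 to 7.95 in knockout and 7.49 to 8.36 in control arrays, with a median of -0.25 (Slc4a1 -0.41, Rhag -0.45, Rhd -0.27) and control replicate 4 highest. B cell genes, 11 of 13 measured, ranged from 6.87 to 7.19 and from 7.13 to 7.49, with a median of -0.35 (Cd79b -0.44, Pax5 -0.52, Cd79a -0.39). Neutrophil genes, 11 of 11 measured, ranged from 9.09 to 9.32 and from 8.88 to 9.45, with a median of 0.05 (S100a9 0.35, S100a8 0.27, Prtn3 -0.39). Knockout replicate 1, high for bone, was the lowest animal for B cell genes. None of the genes in these marrow, muscle, cartilage and osteoclast lists passed in limma, and their part in the bone gene differences was not tested.

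**Figure D4:**
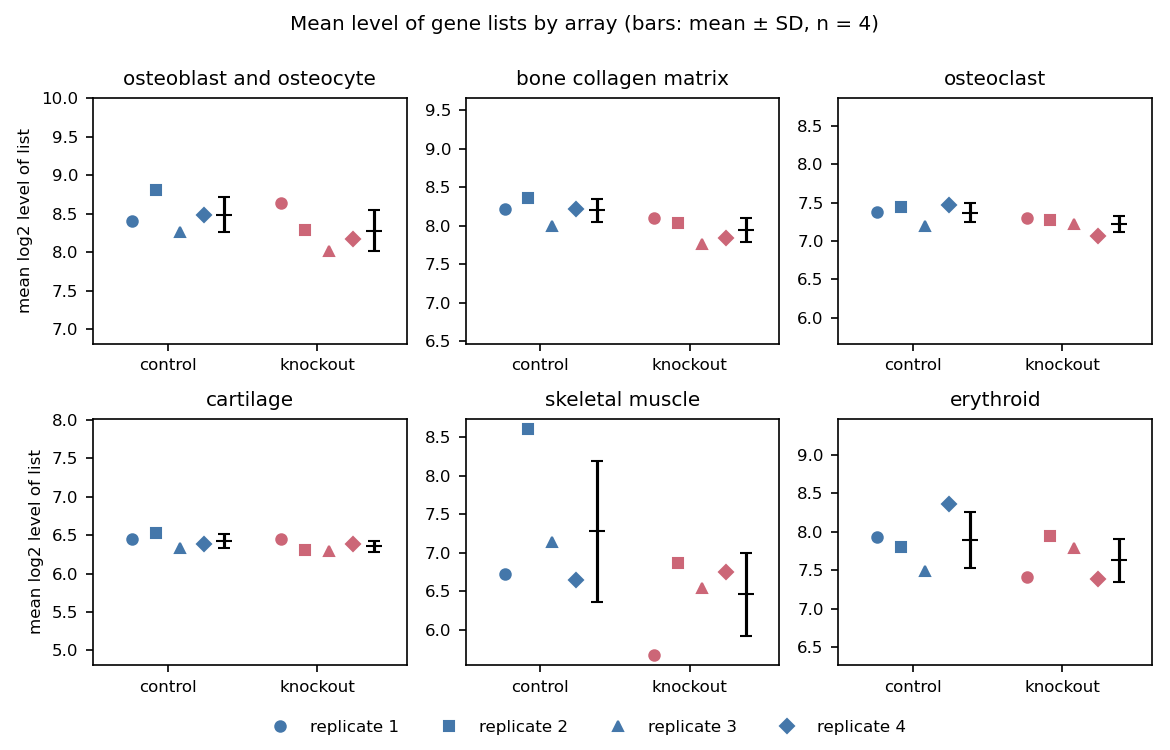
Mean log2 level of 6 gene lists (vertical axis, the same span of 3.2 in each panel) in each control and knockout animal, with marker shapes for replicate numbers and the mean ± SD beside each group. Control replicate 2 (square) is highest in the osteoblast and osteocyte (8.80), collagen matrix (8.36), cartilage (6.53) and muscle (8.61) panels, while knockout replicate 1 (circle) is high for bone (8.63) and lowest for muscle (5.67).

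Genes of the cochlea itself were read in the same way. Spiral ligament genes, 11 of 11 measured, included Coch at 10.32 ± 0.26 in knockout and 10.67 ± 0.08 in control cochlea (SD, n = 4), with Slc4a11 at -0.57 and Gjb6 at -0.35. The list ranged from 7.32 to 7.86 in knockout and 7.63 to 7.83 in control arrays. Its median difference was -0.13, with 9 of the 11 genes below 0. Sensory epithelium genes, 12 of 12 measured, ranged from 5.46 to 5.79 and from 5.69 to 5.87 (Myo6 -0.53, Fbxo2 -0.42, Otogl -0.31). Their median difference was -0.115, with 9 of the 12 below 0, and 0 genes of either list passed. Of the 12 sensory epithelium genes, 4 lay below the median brightness of tested features, among them Slc26a5 at percentile 23.9 and Tmc1 at 16.7. Knockout replicate 1 was the highest knockout animal in both lists and knockout replicate 3 the lowest, as on average for the bone genes. No detection calls were used here, so features near background could not be separated from expressed ones. All 8 bone gene features lay above the median brightness of tested features, the dimmest, Sost, at percentile 81.4. Over all tested features limma called Calb2 (-1.60), Mir96 (-1.48) and Snap25 (-1.09), all lower in knockout, and the Mir96 feature therefore followed the labels. Correlations between arrays were 0.947 to 0.976 over the whole value table.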

How the data were processed

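The authors deposited log2 expression values. Per the labels, Affymetrix Expression Console computed them by RMA as a gene-level analysis. RMA corrects background, equalises the distributions of the arrays and summarises the probes of a feature. Not given in the sources used here are the software version, the genome build and whether all 8 arrays were normalized as one set. Of 41345 features, 23521 were linked to exactly 1 symbol, 1814 to several and 16010 to none.

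The 23521 features were fitted in limma 3.58.1 under R 4.3.3 (lmFit, eBayes with an intensity trend, genotype as the only term, two-sided), with Benjamini-Hochberg adjustment over all of them and a threshold of 0.05. Each difference subtracts control from knockout and carries the standard error from limma. The fit was tested on simulated data with independent noise for each value. Those data lack deviations that genes of an animal share, so the test covers the working of the fit only. No fold threshold was used; precision is limited by the number of arrays. Sequences and gene order come from RefSeq tables of assembly GRCm38.p6.

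The members and lists were chosen with earlier results of these data known, so no list was tested as a set and no p-value was adjusted over a list alone. All measured members were named, with up to 3 genes of smallest p from each other list, the called features, and the 8 genes of closest profile. The alternatives were cyclic loess, signal range as a covariate, eBayes without trend, a block for the replicate number, a mean of at least 5, all features of the table, other thresholds and leaving out each array.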

Additional observations from a re-analysis of the deposited data

Results flagged for a closer look

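For 0 bone cell genes did an animal pass the limit of Dixon's test within its group. With 4 values a group that limit flags only a very isolated animal, so no conclusion follows that none stood apart. For Alpl, knockout replicate 1 read 8.23 beside 7.77, 7.69 and 7.78 in the other knockout animals and was not flagged. Among 156 groups of 4 values, from the named genes and the list levels, 2 had 1 animal whose gap to the nearest of the others exceeded the 95% critical value of Dixon's test, a limit that chance passes in about 1 of 20 groups. Lrp6 read 7.45 in control replicate 3, below the 7.54 to 7.55 of the other control animals. Mir96 read 4.01 in knockout replicate 1, below the 4.26 to 4.31 of the other knockout animals.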

How the results depend on the processing

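Over 113 recalculated differences of the 8 bone cell genes, 106 kept their direction and 0 passed the adjusted threshold (smallest adjusted p = 0.204, limma). The replicate block, eBayes without trend, a mean of at least 5 and all features of the table cannot change a difference. Directions kept in those settings were fixed in advance, so the count of 106 overstates how stable the directions were. Leaving out 1 array moved their median between -0.36 and -0.13 and the median of the 77 other bone genes between -0.24 and -0.13, with 0 called in either set. With signal range as a covariate the median of the other bone genes was -0.044. By list it was -0.052 for collagen matrix, -0.066 for mineralisation, -0.027 for proteoglycans and -0.061 for Wnt and BMP signalling, and it turned positive for osteoblast transcription factors (0.019) and osteocyte genes (0.023). Dspp moved to -0.47 and Mmp13 to -0.0096 with that covariate. Single genes that changed direction were Mepe (0.036), Phex (0.11), Omd (0.27), Slc20a1 (0.025) and Dkk1 (0.019) with that covariate, Omd after cyclic loess (0.11) and without knockout replicate 3 (0.03), control replicate 2 (0.078) or control replicate 4 (0.0072), and Dspp without knockout replicate 1 (0.09) or 2 (0.02) or control replicate 3 (0.15). Leaving out 1 array, 0 to 5 bone cell genes had an unadjusted p under 0.05, the 5 without knockout replicate 1. Omd then ranged from -0.18 to 0.078 and Dspp from -0.16 to 0.15. Over all tested features 3 were called, 1 with signal range as a covariate, 1 with all features of the table, and 1 to 21 when 1 array was left out, the 21 without control replicate 3 and the 1 without control replicate 1. An unadjusted p under 0.05 held for 3361 features and groups did not overlap for 1401. The cause of these shifts was not tested. With the replicate number as a block 3 features were called and 0 bone cell genes passed. Each number occurs in both groups, so the block leaves every difference unchanged. The median of the bone cell genes, -0.23, was therefore the same by design. Same-numbered arrays deviated together at correlations of -0.29 to 0.21, and differently numbered ones at -0.35 to 0.40. The labels name no litter, and these correlations cannot settle whether the numbers pair the animals. With 4 animals a group, the intervals printed above limit what could be seen.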
